A study of Mus musculus with 12 samples.

Results

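CC chemokines are small secreted proteins that attract leukocytes, and 10 of their mRNAs were followed here in mouse bone marrow-derived dendritic cells (BMDC): Ccl2, Ccl3, Ccl4, Ccl5, Ccl6, Ccl7, Ccl9, Ccl12, Ccl17 and Ccl22. The genes were chosen by name, as members of the family, out of 55335 genes listed, with earlier results of these data known. All 10 passed the filter on low counts, which left 14357 genes for testing, while 3 of 14 other CC ligands sought did. The set was thus not chosen blind to the data, and the shares of members called below describe this set only. Bulk RNA-seq was available for 12 libraries in 4 groups of 3. BMDC were grown for 6 days with murine GM-CSF from bone marrow of C57BL/6 mice that carried the CreER transgene and an intact Ctcf gene, a genotype that all groups shared. According to the methods of the study the mice were males and females aged 8 to 12 weeks, and CD11c+ cells were selected from the cultures. The study used 4-hydroxytamoxifen at the start of culture to delete floxed Ctcf. Whether cultures with intact Ctcf received it too is not clear from its wording. WT cells received no stimulus. WTL cells received lipopolysaccharide (LPS), a bacterial wall component, at 100 ng/ml for 3 h. WT + JSH23 cells received JSH-23, a small molecule that keeps the NF-κB subunit RelA out of the nucleus, at 100 µM for 3 h. WTL + JSH23 cells received JSH-23 first and then LPS, at the same doses and times, and it is not given whether JSH-23 stayed in the medium during LPS. Whether the groups without JSH-23 received its solvent is not given, and the labels do not tie libraries to separate cultures. The methods speak of biological replicates. If the libraries were technical repeats, the p-values below would measure technical spread only. WT and WTL libraries were numbered 4 to 6 and the JSH-23 libraries 1 to 3, so that an effect of JSH-23 and a difference between separately prepared sets of libraries cannot be told apart.

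As background, CC chemokines bind G protein-coupled receptors of the CCR family and steer cells along their concentration gradients. Ccl2, Ccl7 and Ccl12 are monocyte chemoattractants that signal through CCR2. Ccl3, Ccl4 and Ccl5 are inflammatory chemokines that attract monocytes and T cells, and Ccl3 and Ccl5 bind CCR1. Ccl6 and Ccl9 are ligands of CCR1 that many myeloid cells make without stimulation. Ccl17 and Ccl22 are the ligands of CCR4, are typical products of dendritic cells and attract T cells. LPS acts through TLR4, and NF-κB is among the transcription factors that this receptor activates in dendritic cells.

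Stretches before the start sites of 4 members are printed because JSH-23 acts on RelA, a protein that binds κB sites in DNA. They belong to Ccl3, which rose most with LPS, to Ccl9, whose stretch held most motif matches, to Ccl12, which had the lowest fold with JSH-23 under LPS, and to Ccl22, the member with most counts. RefSeq windows of build GRCm38.p6, the patch release of mm10, were at hand for 6 of the 10 members (Ccl3, Ccl6, Ccl9, Ccl12, Ccl17 and Ccl22). The 250 bases before the RefSeq start were searched on both strands for the κB consensus and for AP-1-like letters, TGANTCA with any middle base. The interferon-stimulated response element (GAAA, any 2 bases, then GAAA) and the letters TATAAA of the TATA box were sought in the same way. Capitals mark the matches to any of them. Ccl3 lies on the minus strand (chr11:83649379-83649628), Ccl9 on the minus strand (chr11:83578637-83578886), Ccl12 on the plus strand (chr11:82101595-82101844) and Ccl22 on the plus strand (chr8:94745434-94745589).
Ccl3: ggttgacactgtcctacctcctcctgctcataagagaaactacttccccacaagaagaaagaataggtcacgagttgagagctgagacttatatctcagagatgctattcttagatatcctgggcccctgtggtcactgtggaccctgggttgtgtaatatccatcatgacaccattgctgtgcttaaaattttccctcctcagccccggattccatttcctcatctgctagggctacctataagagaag
Ccl9: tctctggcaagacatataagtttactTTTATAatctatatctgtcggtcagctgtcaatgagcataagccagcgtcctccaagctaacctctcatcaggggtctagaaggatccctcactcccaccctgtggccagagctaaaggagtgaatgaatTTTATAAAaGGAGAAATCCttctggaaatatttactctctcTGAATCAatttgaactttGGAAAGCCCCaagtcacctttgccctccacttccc
Ccl12: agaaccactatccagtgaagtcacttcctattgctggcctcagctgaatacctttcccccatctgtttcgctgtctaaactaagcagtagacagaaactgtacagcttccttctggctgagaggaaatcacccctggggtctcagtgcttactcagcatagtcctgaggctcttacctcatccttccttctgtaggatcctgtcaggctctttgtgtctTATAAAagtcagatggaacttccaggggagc
Ccl22: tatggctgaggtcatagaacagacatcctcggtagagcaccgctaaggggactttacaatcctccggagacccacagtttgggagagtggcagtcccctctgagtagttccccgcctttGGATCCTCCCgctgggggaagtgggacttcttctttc
The Ccl22 stretch ends after 156 bases because the GENCODE start lies 94 bases before the RefSeq start. The Ccl3 stretch ends at its RefSeq start, which lies before the GENCODE start, and the bases between these starts were not searched. The κB consensus was found in the windows of Ccl6, Ccl9 and Ccl22, which is 3 of 6, and in 23.2% of all 32851 promoter windows of the same length. Ccl9 had 2 κB matches, an AP-1 match (TGAATCA) and 3 TATA matches, of which one pair overlaps and runs together in capitals. These TATA letters lay 224 to 219 and 94 to 89 bases before the start on the strand opposite to the gene. The remaining match lay 92 to 87 bases before it on the gene's own strand. They are matches of letters, and whether any of them works as a site was not tested. AP-1 letters were in 6.75% of all windows and TATA letters in 12.4%. Ccl12 had a TATA match and none of the others. The response element was in none of the 6 windows and in 2.98% of all. The windows of Ccl3 and Ccl17 held no match, which says only that these letters are not in those 250 bases.

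Total expected counts ran from 24664724 to 34837847 per library, and the 10 members took 1.18% to 1.21% of them in WT, 2.01% to 2.06% in WTL, 1.13% to 1.15% in WT + JSH23 and 1.59% to 1.65% in WTL + JSH23. Levels are given as CPM, counts per 1000000 counts after TMM scaling of the library sizes. Adjusted p-values are from edgeR's quasi-likelihood test with Benjamini-Hochberg adjustment over all 14357 genes, and a gene counted as called at an adjusted p under 0.05 together with a change of more than 2-fold. Of 12 dendritic cell markers, 11 were tested and Cd209a was nearly absent (0.0197 CPM in WT). Their summed level was 14410 to 14680 CPM in WT, 17230 to 18200 in WTL, 13450 to 13720 in WT + JSH23 and 14960 to 16110 in WTL + JSH23. The 12 macrophage and monocyte markers summed to 12620 to 13430 CPM in WT, 12940 to 13130 in WTL, 9966 to 10310 in WT + JSH23 and 10160 to 10330 in WTL + JSH23. Neutrophil and granule markers stayed between 63.4 and 86.3 CPM, and summed markers of T and NK cells, B cells, and basophils and mast cells were each below 5 CPM, with the mast cell genes Tpsb2 and Cma1 at 0 in all libraries. Libraries of a group differed by more than counting noise. WTL + JSH23 replicate 3 stood farthest from its group, and without it the members called were again 5, 4, 5 and 4 for the effects of LPS without and with JSH-23 and of JSH-23 with and without LPS.

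LPS raised the CC chemokines of BMDC. Without JSH-23 all 10 were higher in WTL than in WT at an adjusted p under 0.05, where 31.0% of all genes were, although Ccl6 was lower in WTL when log2 TPM was tested. Ccl3, Ccl4, Ccl9, Ccl17 and Ccl22 were also past 2-fold, 5 of 10 against 7.36% of all genes. On log2(TPM + 1) Ccl9, Ccl17 and Ccl22 were under 2-fold (0.77, 0.96 and 0.74 in log2 units), and Ccl22 was also just under it with upper quartile scaling (0.9952), so that Ccl3 and Ccl4 were the members past 2-fold under all scalings tried. Ccl3 rose 45.7-fold and Ccl4 33.7-fold, while the other 8 changed between 1.08-fold and 2.51-fold. The median log2 fold change was 1.01 over the members and −0.05 over all genes tested. Without any one library, 8 to 10 members passed the p threshold. The calls that could be lost were Ccl6 (adjusted p = 0.0884 without WT replicate 4 and 0.0515 without WT replicate 6) and Ccl12 (0.0787 without WTL replicate 4, 0.0564 without WT replicate 4 and 0.0590 without WT replicate 6). Ccl12 was also lost on log2(TPM + 1) (0.289), Ccl7 on log2(TPM + 0.1) (0.0641) and Ccl6 under upper quartile scaling (0.455).

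The rise with LPS was also seen in cells given JSH-23. There 8 of 10 members were higher in WTL + JSH23 than in WT + JSH23 at an adjusted p under 0.05 (27.4% of all genes), and Ccl2, Ccl3, Ccl4 and Ccl7 were past 2-fold, 4 of 10 against 5.85% of all genes. On log2(TPM + 1) Ccl2 and Ccl7 were under 2-fold (0.97 and 0.42 in log2 units), and Ccl7 also with upper quartile scaling (0.93). Ccl3 rose 27.6-fold and Ccl4 24.6-fold. Ccl6 and Ccl12 did not pass the test, and 7 or 8 passed without any one library. Ccl6 was lower with LPS under upper quartile scaling (−0.10, adjusted p = 0.0239) and on log2(TPM + 1) (−0.24, adjusted p = 8.74e-05). The median log2 fold change was 0.84 over the members and −0.02 over all genes.

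JSH-23 lowered members in LPS-stimulated and in unstimulated cells. Under LPS all 10 were lower in WTL + JSH23 than in WTL at an adjusted p under 0.05 (24.2% of all genes), and Ccl2, Ccl3, Ccl4, Ccl7 and Ccl12 by more than 2-fold, 5 of 10 against 3.25%. Without LPS 8 of 10 were lower in WT + JSH23 than in WT (22.1% of all genes), with Ccl2, Ccl4, Ccl7 and Ccl12 past 2-fold, 4 of 10 against 2.94%. None was higher with JSH-23 in either comparison, where 24.5% and 18.8% of all genes were. Without any one library, 9 or 10 were lower under LPS and 6 to 8 without LPS. The median log2 fold change was −1.06 over the members under LPS and −0.55 without LPS, and 0.02 and −0.01 over all genes. In bulk RNA a smaller number of cells that make a chemokine and less mRNA per cell cannot be told apart. Macrophage and monocyte markers were lower with JSH-23 too: 11 of 12 under LPS and 10 of 12 without LPS passed the p threshold in that direction, and Fcgr1, Ly6c2, C5ar1 and Cx3cr1, named after their values were seen, by more than 2-fold in both. Their part in the lower chemokine levels was not tested.

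**Figure D1:**
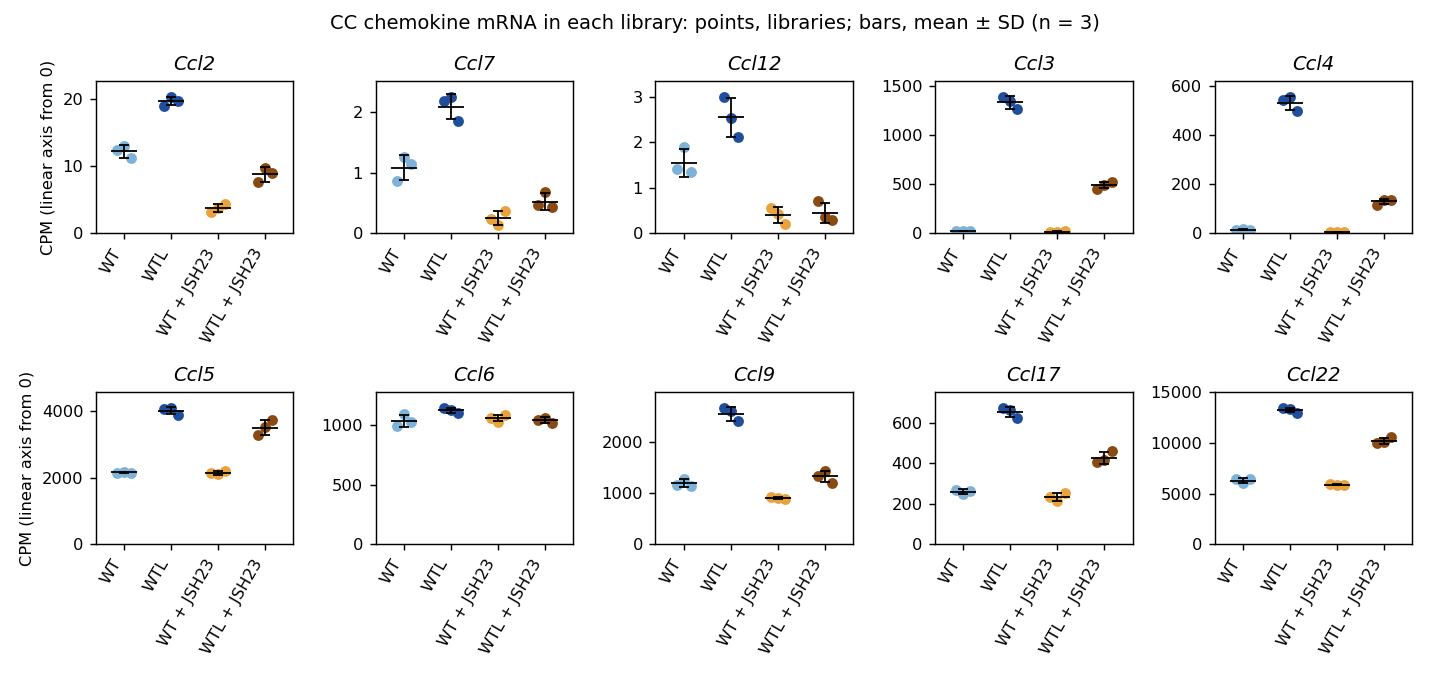
CPM of each CC chemokine mRNA (linear axes from 0) in the 4 groups, with 1 point per library and bars for the mean ± SD (n = 3). WTL libraries are the highest for each gene; Ccl3 and Ccl4 are near 0 on these axes without LPS, and Ccl6 stays between 994 and 1142 CPM in all libraries.

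Among the CCR2 ligands, Ccl2 was measured at 12.4, 13.0 and 11.2 CPM in WT and at 19.0, 20.2 and 19.8 CPM in WTL. With JSH-23 it was at 3.26, 3.73 and 4.36 CPM without LPS and at 7.65, 9.79 and 8.95 CPM with LPS. The 4 groups did not overlap, and stimulated cells given JSH-23 stayed below unstimulated cells without it. The log2 fold change with LPS was 0.69 ± 0.08 (SE) without JSH-23 (adjusted p = 3.6e-07) and 1.22 ± 0.11 with it (adjusted p = 9.64e-09). JSH-23 lowered Ccl2 by 1.17 on the log2 scale under LPS and by 1.70 without LPS (adjusted p = 7.31e-10 and 2.55e-11).

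Ccl7 was scarce, with 28, 44 and 33 counts in WT and 56, 67 and 40 in WTL. With JSH-23 there were 8, 4 and 11 counts without LPS and 13, 17 and 10 with LPS. In CPM these were means of 1.08 ± 0.20 (SD, n = 3), 2.08 ± 0.21, 0.255 ± 0.115 and 0.523 ± 0.134 CPM, and the groups did not overlap. The log2 fold change with LPS was 0.95 ± 0.23 (SE) without JSH-23 (adjusted p = 0.00128) and 1.02 ± 0.38 with it (adjusted p = 0.0274). That latter call rested on single libraries: the adjusted p was 0.134 without WTL + JSH23 replicate 2, 0.116 without WT + JSH23 replicate 2 and 0.0690 without WT + JSH23 replicate 1. Ccl7 fell by 1.99 with JSH-23 under LPS and by 2.06 without LPS on the log2 scale (adjusted p = 2.98e-06 and 1.96e-05).

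Ccl12 was also scarce, with 46, 67 and 39 counts in WT and 77, 76 and 46 in WTL. In WT + JSH23 it had 18, 12 and 6 counts, and in WTL + JSH23 20, 9 and 7. The pair of JSH-23 groups overlapped, and both lay below WT and WTL. Mean levels were 1.55 ± 0.31 (SD, n = 3), 2.55 ± 0.43, 0.397 ± 0.177 and 0.456 ± 0.220 CPM in WT, WTL, WT + JSH23 and WTL + JSH23. LPS changed Ccl12 by 0.71 ± 0.24 (SE, log2) without JSH-23 (adjusted p = 0.0142) and by 0.22 ± 0.40 with it, a difference that did not pass the test (adjusted p = 0.669, 95% interval −0.57 to 1.01; −0.01 on log2 TPM). With JSH-23 under LPS, Ccl12 fell by 2.44 ± 0.31 on the log2 scale, 5.42-fold, the most of the 10 members in that comparison (adjusted p = 8.63e-07). Without LPS it fell by 1.95 ± 0.32 (adjusted p = 3.17e-05).

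Ccl2, Ccl7 and Ccl12 shared an order of mean CPM that no other member had: WT + JSH23, WTL + JSH23, WT and WTL from low to high. These 3 were the members lower in WTL + JSH23 than in WT (31.4% of all genes were), with log2 differences of −0.48 ± 0.09 for Ccl2, −1.04 ± 0.29 for Ccl7 and −1.73 ± 0.32 for Ccl12 (adjusted p = 0.000153, 0.00364 and 7.18e-05). The neighbours WT + JSH23 and WTL + JSH23 did not differ beyond their spread for Ccl12.

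The inflammatory chemokines Ccl3 and Ccl4 went from low to abundant with LPS. Ccl3 was at 28.9, 30.4 and 28.0 CPM in WT and at 1384, 1350 and 1262 CPM in WTL. In WT + JSH23 it was at 17.2, 15.3 and 20.8 CPM and in WTL + JSH23 at 456, 498 and 519 CPM. No groups overlapped, and WTL + JSH23 stood far above WT and well below WTL. The log2 fold changes with LPS were 5.51 ± 0.07 (SE) without JSH-23 and 4.79 ± 0.08 with it (adjusted p = 1.29e-22 and 2.09e-21). With JSH-23 Ccl3 fell by 1.44 under LPS and by 0.71 without LPS on the log2 scale (adjusted p = 3.49e-14 and 3.28e-07).

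Ccl4, the neighbour of Ccl3 on chromosome 11, was at 14.5, 18.2 and 14.4 CPM in WT and at 543, 555 and 499 CPM in WTL. JSH-23 libraries held 4.86, 5.50 and 5.62 CPM without LPS and 118, 137 and 138 CPM with LPS. Here too the 4 groups were apart. LPS raised Ccl4 by 5.07 ± 0.08 (SE, log2) without JSH-23 and by 4.62 ± 0.09 with it (adjusted p = 4.88e-22 and 6.65e-20). JSH-23 lowered it by 2.02 under LPS and by 1.57 without LPS on the log2 scale (adjusted p = 7.33e-16 and 1.83e-10). The level under LPS with JSH-23 was 24.6% of that without, and 33.8% in unstimulated cells. For Ccl3 the same shares were 36.9% and 61.1%.

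Ccl5, the most abundant member per length, was at 2136, 2179 and 2150 CPM in WT and at 4059, 4083 and 3887 CPM in WTL. With JSH-23 it was at 2133, 2091 and 2194 CPM without LPS and at 3266, 3505 and 3713 CPM with LPS. The unstimulated groups overlapped and the stimulated groups were apart. LPS raised Ccl5 by 0.90 ± 0.04 (SE, log2) without JSH-23 and by 0.71 ± 0.04 with it (adjusted p = 3.15e-14 and 2.96e-12). JSH-23 lowered it by 0.20 under LPS (adjusted p = 0.000327), which did not pass on log2 TPM (−0.08, adjusted p = 0.0798). Without LPS the difference was −0.01 (adjusted p = 0.869, 95% interval −0.09 to 0.07).

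Ccl6 varied least. It was at 994, 1093 and 1022 CPM in WT, at 1142, 1125 and 1099 in WTL, at 1061, 1029 and 1080 in WT + JSH23 and at 1046, 1062 and 1019 in WTL + JSH23. Only WTL lay apart from the other 3 groups, which overlapped one another. The difference between WTL and WT was 0.11 ± 0.04 (SE, log2; adjusted p = 0.0121) by count, but −0.19 when log2 TPM was tested (adjusted p = 0.000387), a scale on which the median of all genes moved from −0.05 to −0.26. Its direction with LPS therefore depended on the scaling. Under LPS, JSH-23 gave −0.11 ± 0.04 (adjusted p = 0.0256), which was lost on TPM (adjusted p = 0.732) and without WTL + JSH23 replicate 1 or 3 or WTL replicate 4 or 5 (adjusted p up to 0.0926). The antisense transcript E230016K23Rik overlaps Ccl6, and held 24 to 76 counts where Ccl6 held 23579 to 38417.

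Ccl9, like Ccl6 a ligand of CCR1, was at 1151, 1276 and 1141 CPM in WT and at 2658, 2598 and 2396 CPM in WTL. In WT + JSH23 it was at 922, 896 and 892 CPM and in WTL + JSH23 at 1339, 1424 and 1203 CPM. WTL stood clear of all other groups, WT + JSH23 lay below WT, and WTL + JSH23 overlapped WT. The log2 fold change with LPS was 1.10 ± 0.05 (SE) without JSH-23 and 0.55 ± 0.05 with it (adjusted p = 1.21e-13 and 1.92e-08). JSH-23 lowered Ccl9 by 0.95 under LPS and by 0.40 without LPS on the log2 scale (adjusted p = 4.51e-12 and 3.24e-06). WTL + JSH23 remained 0.15 ± 0.05 above WT in log2 units (adjusted p = 0.0179).

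Of the CCR4 ligands, Ccl17 rose 2.51-fold with LPS and Ccl22 2.11-fold by count, and both by less than 2-fold on log2 TPM. Ccl17 was at 270.5, 247 and 264.5 CPM in WT and at 674.5, 666.5 and 625 CPM in WTL. With JSH-23 it was at 232, 215 and 252 CPM without LPS and at 408, 415 and 463 CPM with LPS. The unstimulated groups overlapped, and WTL + JSH23 fell between them and WTL. LPS raised Ccl17 by 1.33 ± 0.06 (SE, log2) without JSH-23 and by 0.88 ± 0.06 with it (adjusted p = 7.27e-15 and 1.42e-11). JSH-23 lowered it by 0.61 under LPS (adjusted p = 5.58e-09) and by 0.16 without LPS (adjusted p = 0.0223), the latter not without WT + JSH23 replicate 2 (0.149), WT + JSH23 replicate 1 (0.0611), WT replicate 4 (0.101) or WT replicate 6 (0.0691).

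Ccl22 was at 6407, 6038 and 6435 CPM in WT and at 13460, 13350 and 13020 CPM in WTL. In WT + JSH23 it was at 5937, 5855 and 5839 CPM and in WTL + JSH23 at 10030, 10090 and 10560 CPM. The groups did not overlap, but WT and WT + JSH23 lay close together. LPS raised Ccl22 by 1.08 ± 0.03 (SE, log2) without JSH-23, 2.11-fold, and by 0.80 ± 0.03 with it (adjusted p = 7.29e-17 and 2.12e-14). JSH-23 lowered it by 0.38 under LPS (adjusted p = 6.59e-09). Without LPS it was lower by 0.10 (adjusted p = 0.0242), and that adjusted p was 0.0549 without WT + JSH23 replicate 2, 0.0724 without WT + JSH23 replicate 3, 0.0994 without WT replicate 4 and 0.113 without WT replicate 6. It was 0.0541 with upper quartile scaling and 0.0623 when the pair of groups was fitted alone.

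Ccl3, Ccl4, Ccl5, Ccl9, Ccl17 and Ccl22 were the 6 members still higher in WTL + JSH23 than in WT, where 30.7% of all genes were. Their levels ran in one order, WT + JSH23, WT, WTL + JSH23 and WTL, in which the neighbours WT + JSH23 and WT did not differ beyond their spread for Ccl5. The libraries of WT and WT + JSH23 for Ccl17, and of WT and WTL + JSH23 for Ccl9, overlapped although the test was passed.

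**Figure D2:**
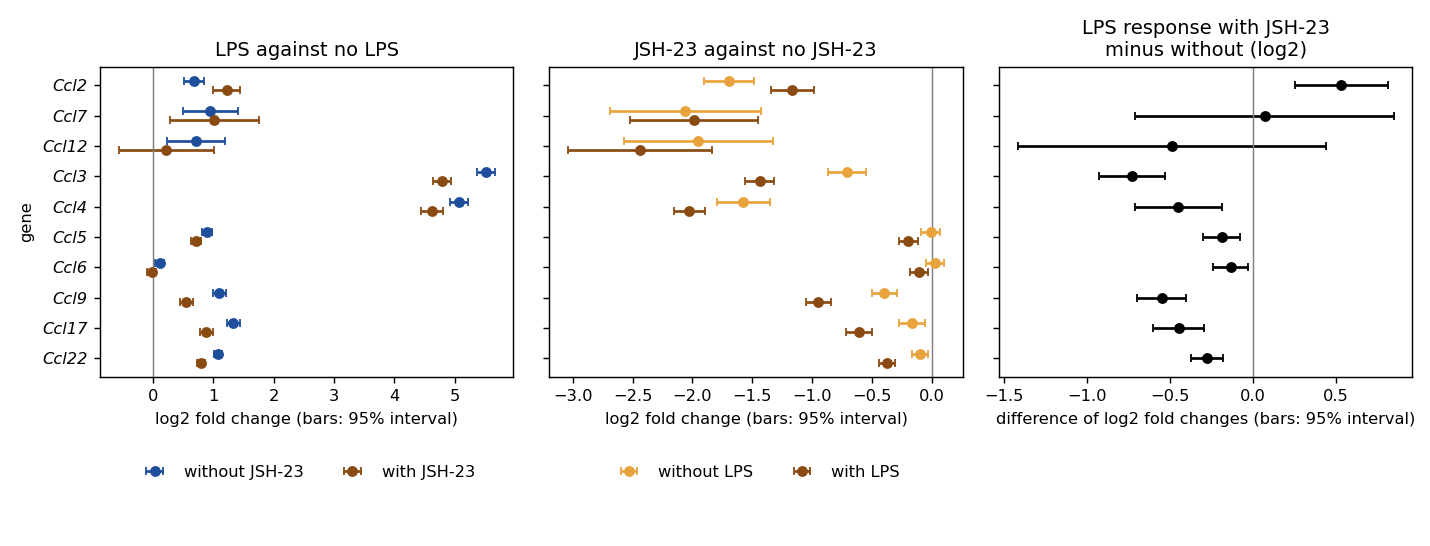
Log2 fold changes of the 10 mRNAs with 95% intervals (edgeR) for LPS without and with JSH-23, for JSH-23 without and with LPS, and for the difference between the LPS responses. Ccl3 and Ccl4 stand out with LPS; Ccl6 sits near 0 throughout (its LPS change is 0.11 by count and −0.19 on TPM); Ccl2 alone lies to the right of 0 in the last panel with an interval that leaves 0 out.

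Whether JSH-23 altered the response to LPS was tested by the interaction, the log2 fold change with JSH-23 minus that without. It was below 0 at an adjusted p under 0.05 for 6 of 10 members (8.44% of all genes) and above 0 for Ccl2 (9.54% of all genes). Ccl3 had the interaction farthest from 0, −0.73 ± 0.10 (SE; adjusted p = 3.63e-05), followed by Ccl9 with −0.55 ± 0.08 (3.27e-05), Ccl4 with −0.45 ± 0.13 (0.0228), Ccl17 with −0.45 ± 0.08 (0.000349), Ccl22 with −0.28 ± 0.05 (0.00034) and Ccl5 with −0.19 ± 0.06 (0.0265). For Ccl2 it was 0.53 ± 0.14 (adjusted p = 0.0130), a larger fold with JSH-23. Ccl2 also started from a lower level with JSH-23, and whether this is linked to the larger fold was not tested. Ccl6 gave −0.13 ± 0.05 (adjusted p = 0.0927), Ccl7 0.07 ± 0.40 (0.934) and Ccl12 −0.49 ± 0.47 (0.538), none of them past the test. The call for Ccl2 was lost without WT + JSH23 replicate 1 (adjusted p = 0.0613). That for Ccl4 was lost without WT + JSH23 replicate 2 or 3, WTL replicate 5, or WT replicate 4 or 6 (adjusted p 0.0514 to 0.0849). That for Ccl5 was lost without WTL + JSH23 replicate 1, WT + JSH23 replicate 3, WTL replicate 4 or 5, or WT replicate 4 or 6 (0.0565 to 0.0903). On log2 TPM the interactions of Ccl4, Ccl5 and Ccl22 did not pass either (adjusted p 0.0534, 0.502 and 0.0666 with a pseudocount of 1).

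Counted as a gain in CPM, the rise with LPS in JSH-23 cells was 24.3% of that without JSH-23 for Ccl4 (126 against 517 CPM) and 36.3% for Ccl3 (473 against 1303 CPM). It was 30.7% for Ccl9, 49.7% for Ccl17, 62.3% for Ccl22 and 73.1% for Ccl5. For these 6 and for Ccl7 every difference between a stimulated and an unstimulated library was smaller with JSH-23 than without. Such differences reuse the same 3 libraries a group and are not independent. How many of all genes would show the same was not counted, so this says nothing particular to the members. Ccl2 gained 5.02 CPM with JSH-23 and 7.47 CPM without, so that its gain was 67.2% in CPM while its fold was larger. These shares are descriptions on a linear scale and were not tested.

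Between genes, levels are comparable per transcript length as TPM. The 10 members summed to 22710 ± 173 TPM in WT (SD, n = 3), 38750 ± 413 in WTL, 21530 ± 128 in WT + JSH23 and 31260 ± 771 in WTL + JSH23. Ccl5 made up 54.1% of the members' TPM in WT and 45.6% in WTL, and ranked 8th among all listed genes in WT and 3rd in WTL. Ccl22 came next in all groups with 5179 ± 220 TPM in WT and 8664 ± 93.3 in WTL. Without LPS, Ccl6, Ccl17 and Ccl9 followed at 1914, 1596 and 1542 TPM in WT, and Ccl3 and Ccl4 were far lower at 91.4 and 62.2 TPM. With LPS, Ccl3 reached 3283 ± 101 TPM and moved from rank 1521 to rank 35 among all genes, and Ccl4 reached 1646 ± 58.7 TPM and moved from rank 2221 to rank 85. With JSH-23 and LPS these genes ranked 112 and 357. Ccl2 stayed at 43.7 TPM or below in the group means, Ccl12 at 11.2 and Ccl7 at 4.81.

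**Figure D3:**
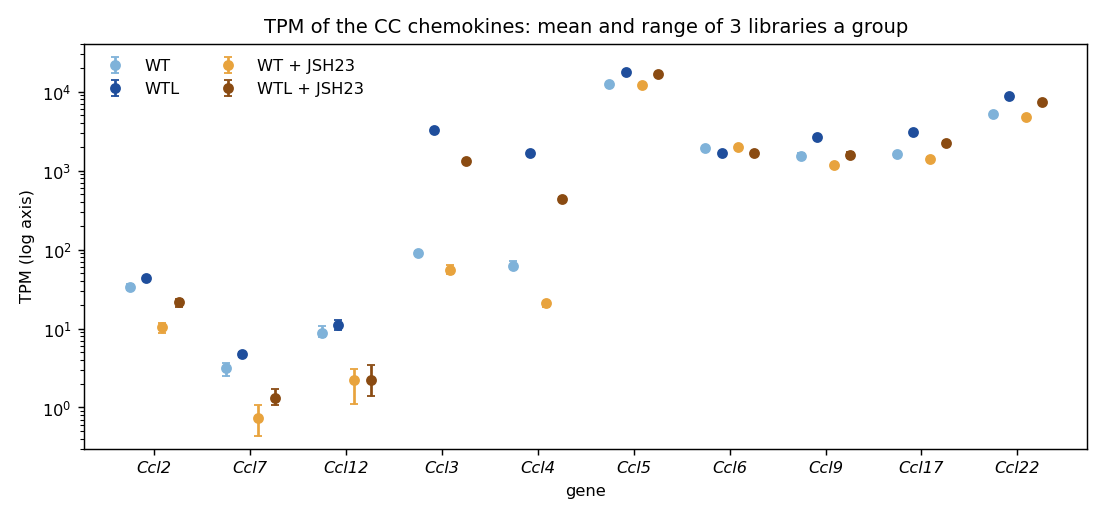
TPM (log axis) of each member in the 4 groups, as the mean and the range of 3 libraries. Ccl5 and Ccl22 lie above the others in each group, Ccl3 and Ccl4 span the widest range, and Ccl7 and Ccl12 stay below 13 TPM in every library.

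By position, the members lie in 3 clusters of build mm10, and each gene was counted by its own exons. Ccl2 (chr11:82035571-82037453), Ccl7 (chr11:82045712-82047525) and Ccl12 (chr11:82101845-82103400), all on the plus strand, span 67.8 kb together with Ccl11, which had at most 1 count in a library. Ccl5 (chr11:83525778-83530518), Ccl9 (chr11:83572919-83578636), Ccl6 (chr11:83587882-83593087) and Ccl3 (chr11:83647844-83649355) on the minus strand and Ccl4 (chr11:83662584-83664683) on the plus strand span 138.9 kb. The LPS response within this second cluster ran from 0.11 for Ccl6 by count (−0.19 on TPM) to 5.51 for Ccl3, with Ccl6 and Ccl3 as neighbours among its tested genes. On chromosome 8, Ccl22 (chr8:94745590-94751699) and Ccl17 (chr8:94810453-94812036), both on the plus strand, enclose Cx3cl1 within 66.4 kb. Cx3cl1, which encodes fractalkine, changed by 0.85 with LPS and by −0.58 with JSH-23 under LPS in log2 units, against 1.08 and −0.38 for Ccl22 and 1.33 and −0.61 for Ccl17.

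**Figure D4:**
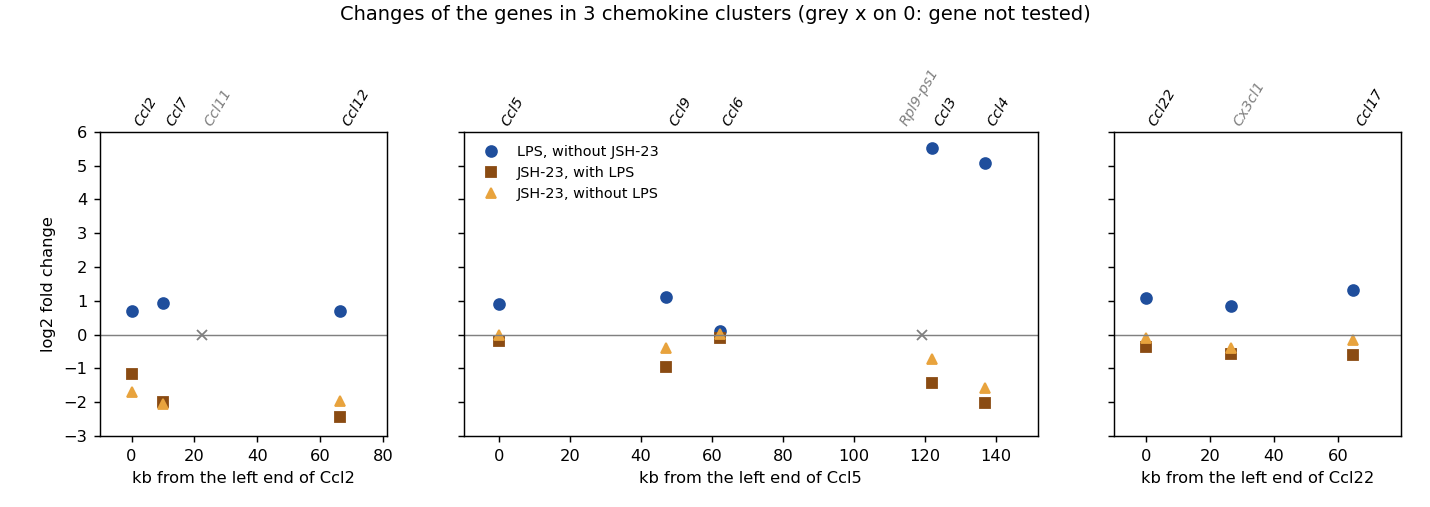
Log2 fold changes of the protein-coding genes of the 3 clusters against distance in kb from the left end of the first gene, for LPS without JSH-23 (circles) and JSH-23 with LPS (squares) and without LPS (triangles). Crosses mark Ccl11 and Rpl9-ps1, which were not tested. Ccl3 and Ccl4 at the right of the middle cluster have the highest LPS changes, and Ccl6 in the same cluster is near 0 (its LPS change is −0.19 on TPM).

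For each member, the tested genes with the most similar log2 CPM over the 12 libraries were sought among 8057 protein-coding genes with at least 10 CPM in a group. The libraries share their 4 treatments, and the Pearson r, which ignores the size of a change, is given as a description. Closest to Ccl3 was Cd40, a costimulatory receptor of dendritic cells (r = 0.9997, with 306 CPM in WT, 1809 in WTL, 237 in WT + JSH23 and 1160 in WTL + JSH23), followed by Rrs1 (r = 0.9996). Ehd1 was close to Ccl4 (r = 0.998), Sbds and Arl5c were closest to Ccl5 (0.997 for both), and Atp2a3 and Actn1 to Ccl22 (0.998 and 0.997). Fcgr2b, an inhibitory Fc receptor, and Tlr7, a sensor of single-stranded RNA, were closest to Ccl9 (0.997 and 0.996), and Map2k1 and Gnb1 to Ccl17 (0.996 and 0.993). For the CCR2 ligands the values were lower: Scarf1 and Sema6d for Ccl2 (0.987 and 0.982), Tpx2 and Mlkl for Ccl7 (0.978 and 0.977) and Hnrnpu and Zfp207 for Ccl12 (0.980 and 0.978). Ccl7 and Ccl12 had 4 to 77 counts in a library, which makes their r less certain. The size of the changes differed: Hnrnpu had means of 361 CPM in WT + JSH23 and 428 in WTL, and Ccl12 0.397 and 2.55. The lowest were those of Ccl6, with Apip and Eif1ax (0.907 and 0.883).

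Of 14 other CC chemokine ligands, 13 were listed under these names and 3 were tested (Ccl24, Ccl25 and Ccl27a). Ccl24, an eosinophil attractant that binds CCR3, rose from 9.59 ± 1.09 (SD, n = 3) to 21.9 ± 0.74 CPM with LPS and was at 6.27 ± 1.02 and 10.3 ± 0.54 CPM with JSH-23. Its log2 fold changes were 1.19 ± 0.09 (SE) with LPS and −1.09 ± 0.09 with JSH-23 under LPS (adjusted p = 1.47e-10 and 2.06e-09), and its interaction was −0.48 ± 0.14 (adjusted p = 0.0202). Ccl25 and Ccl27a were called in none of the 5 comparisons.

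Of the 11 CC chemokine receptors, 6 were tested, and none was called higher with LPS or with JSH-23. Ccr2, the receptor of Ccl2, Ccl7 and Ccl12, was at 149 ± 8.75 CPM in WT and 19.9 ± 0.75 in WTL (SD, n = 3), and at 17.1 ± 3.09 and 3.95 ± 1.18 CPM with JSH-23. It fell by 2.91 with LPS and by 3.13 with JSH-23 alone on the log2 scale (adjusted p = 9.15e-17 and 3.67e-16). Ccr2 had fractional counts in 9 libraries, as pairs that fit more than one gene were divided, and its values are less certain for it. Ccr1 fell by 1.33 with LPS, from 63.1 ± 4.24 to 25.2 ± 1.53 CPM (adjusted p = 4.14e-14). Ccr4, the receptor of Ccl17 and Ccl22, was called lower with JSH-23 under and without LPS, and Ccr9 without LPS. Both were under 10 CPM in all groups and are named here after their values were seen. Ccrl2, an atypical receptor, was the 1 of 4 such receptors tested, and rose from 73.5 ± 1.07 to 457 ± 8.27 CPM with LPS and from 69.1 ± 10.6 to 418 ± 73.7 CPM with LPS after JSH-23. Its difference with JSH-23 under LPS was −0.13 ± 0.09 (SE, log2) and did not pass the test (adjusted p = 0.235).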

How the data were processed

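Reads of 12 libraries were trimmed by the authors with Trim Galore, aligned to mm10 with STAR (version 2.6.0c in the submitters' processing notes, another in the study's reporting summary) and quantified with RSEM. The gene models were GENCODE's, of a release not given in the sources used here. The labels name an rRNA depletion kit and the methods a polyA kit, and neither states whether strand was used in counting. The deposited expected counts estimate the read pairs of each gene, and RSEM divides a pair that fits several genes (7.75% to 8.52% of genes had fractional counts). The deposited TPM values are the authors' length-scaled abundances and sum to 1000000 per library.

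Expected counts were rounded and filtered with filterByExpr. All 4 groups were fitted together in edgeR 4.0.16 (R 4.3.3) with TMM scaling and the quasi-likelihood test. The 5 contrasts were: LPS without and with JSH-23, JSH-23 under and without LPS, and the interaction, which was called on the adjusted p alone. Depths of 24664724 to 34837847 left Ccl7 and Ccl12 with 4 to 77 counts, and the quasi-likelihood fit covers counting error and the spread between libraries. Alternatives were RLE and upper quartile scaling, DESeq2 1.42.0, other filters, limma 3.58.1 on log2(TPM + 1) and log2(TPM + 0.1), each library left out, pairs of groups fitted alone, other call rules and the replicate number as a block. The procedure was tested on simulated data.

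The members, the lists and their naming were chosen with earlier results of these data known. Named were all members, list genes called in a comparison with at least 10 CPM in a group (at most 5 a list), and the 2 genes most like each member by Pearson r. Of the listed genes 54587 matched the annotation by versioned identifier. Counts were whole for all members in all libraries. Ccl2 overlaps the antisense gene Gm17268, which had 0 counts in each library. Promoter sequences are RefSeq's, build GRCm38.p6. FPKM was not used. Some receptor and similar genes that the naming rule gives are not reported here.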

Additional observations from a re-analysis of the deposited data

Results flagged for a closer look

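By the interaction test (edgeR, adjusted p under 0.05), 7 members were called as responding to LPS differently in JSH-23 cells than in cells without the compound. Of all genes, 9.54% passed above 0 and 8.44% below 0. The calls for Ccl2, Ccl4 and Ccl5 were lost when certain single libraries were left out. Those for Ccl4, Ccl5 and Ccl22 were lost on log2 TPM. The response in log2 units with JSH-23 minus that without was 0.53 for Ccl2, −0.73 for Ccl3, −0.45 for Ccl4, −0.19 for Ccl5, −0.55 for Ccl9, −0.45 for Ccl17 and −0.28 for Ccl22. Ccl2 was the member with a larger fold in JSH-23 cells, and the other 6 had a smaller one. With 3 libraries a group, no library was tested for standing apart from its group.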

How the results depend on the processing

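Over 1015 refitted values of single members, 962 kept their direction and their side of the call, 32 lost a call, 6 gained one and 15 turned direction. Members called fell from 5 to 2 (LPS without JSH-23, losing Ccl9, Ccl17 and Ccl22) on log2(TPM + 1) and log2(TPM + 0.1), from 4 to 2 (LPS with JSH-23, losing Ccl2 and Ccl7) on log2(TPM + 1), and from 7 to 4 (interaction) on both. Over all genes, calls for LPS without JSH-23 went from 2361 to 1345 on log2(TPM + 1) and to 2734 on log2(TPM + 0.1). For LPS with JSH-23 they went from 1484 to 613 on log2(TPM + 1). Interaction calls went from 2582 to 1762 and 1723. By adjusted p alone there were 10, 8, 10 and 8 for LPS without and with JSH-23 and JSH-23 under and without LPS, and with a 2-fold threshold the interaction called 0, against 7 by edgeR's adjusted p alone. On log2(TPM + 1) the median of all genes moved to −0.26 (LPS without JSH-23), −0.16 (LPS with JSH-23) and 0.11 (interaction), and upper quartile scaling moved it to −0.13 and −0.10 for LPS. The direction turned for Ccl6 with LPS on TPM (−0.189 with either pseudocount), for Ccl12 with LPS after JSH-23 on TPM (−0.0126 and −0.00985), for Ccl5 with JSH-23 without LPS under upper quartile scaling (0.00677) and in the fit of 2 groups (0.00964), and for Ccl7 in the interaction on log2(TPM + 1) (−0.0641). The cause was not tested. Leaving out a library gave −0.268 to 0.559 for Ccl12 with LPS after JSH-23, −0.0278 to 0.00646 for Ccl5 and −0.00188 to 0.0668 for Ccl6 with JSH-23 without LPS, and −0.188 to 0.429 for the Ccl7 interaction, none of them past the test. Members called then ranged from 5 to 6, 3 to 4, 5 to 6 and 4 in the order above, and 5 to 8 for the interaction. The filter on a mean of 1 CPM removed Ccl7 and so gave it no value.

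The correlation of the deviations of same-numbered libraries was weak, 0.0142 to 0.0614 in 6 pairs, although 10 of 12 libraries correlated best with their own number. Whether same-numbered libraries are pairs is therefore not settled. With the replicate number as a block, the members called were 5 for LPS without JSH-23, 4 with JSH-23 and 7 for the interaction, and all 30 member values kept their side of the call. The JSH-23 comparisons could not be blocked, because their groups share no number. Depth limits Ccl7 and Ccl12, whose intervals are the widest.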
